A study of Homo sapiens with 10 samples.

Results

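The HOX genes were followed in 2 human prostate cancer cell lines on expression arrays. A member was any gene whose only annotated symbol was HOXA, HOXB, HOXC or HOXD with a number. Antisense and host genes were left out. This gave 28 genes of the 19775 genes with 1 symbol on the array, out of 39 HOX genes in RefSeq. HOXA was covered by HOXA2 alone of 11 genes. HOXB had 10 of 10 genes, HOXC 9 of 9 and HOXD 8 of 9. The other 11 genes, which were HOXD3 and the HOXA genes other than HOXA2, were not analysed here. The members had 44 probe sets, 15 of them with a single one, and the probe set of highest mean stood for its gene.

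HOX genes encode homeodomain transcription factors that give cells their position along the body axis. They lie in 4 clusters, and paralog groups run from group 1 at the 3′ end to group 13 at the 5′ end of each cluster. Genes at the 3′ end act anteriorly and those at the 5′ end posteriorly. Members of the posterior groups, HOXB13 and HOXD13 among them, are needed for the development of the prostate, and HOXB13 binds DNA together with the androgen receptor in luminal prostate cells. In adult cells the Polycomb and Trithorax proteins keep HOX genes off or on.

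RNA was measured in DU145, a prostate cancer line that lacks the androgen receptor, and in LNCaP, an androgen-responsive one. All cells carried a vector with GFP and puromycin resistance: under the ubiquitous PGK promoter in the controls, and under OCT4 and SOX2 enhancers in EOS cells, which were selected in puromycin over a few weeks for higher OCT4. The groups of a line were PGK (2 arrays), EOS (2 arrays) and EOS with ribavirin (1 array), the last labelled as made from EOS number 2. No dose or time of ribavirin is in the labels, and they do not say whether a group's 2 arrays are separate cultures, so that p-values measure the spread between arrays, which may be technical. The deposited scale differed by number: arrays numbered 1 had a 2% trimmed mean of 500, against 96.6 to 126.5 for number 2. For ACTB, the 3′ probe set over the 5′ one, which tracks RNA length, gave 1.24 to 1.51 in number 1 and 3.20 to 3.99 in number 2. The same ratio for GAPDH stayed near 1, with 0.96 to 1.06 in number 1 and 1.09 to 1.22 in number 2. Values below are log2(intensity + 16) after each array was scaled to a trimmed mean of 500. A gene was at background in a line when it lay below the median probe set of the array in all 5 of its arrays. Values of different probe sets cannot be ranked against each other.

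The line labels held in the luminal markers. All 6 of 6 tested luminal markers were higher in LNCaP, with KLK3 (prostate-specific antigen) higher by 9.61 ± 0.17 (SE, limma adjusted p = 6.09e-09). KLK3 was at background in DU145, which makes the difference at least 388-fold. The tested luminal markers other than STEAP2 were all at background in DU145. They passed the filter on dim probe sets through LNCaP only, which favours a difference. The summed scaled intensity of the luminal markers ran from 374.1 to 633.3 in DU145 and from 50270 to 79410 in LNCaP. Neither of the basal keratins KRT5 and KRT14 passed the filter on dim probe sets. The leukocyte markers PTPRC, CD14 and HLA-DRA were at background in both lines. CD3E lay above the median in 1 DU145 and 2 LNCaP arrays, and LYZ in 3 LNCaP arrays. The summed leukocyte markers ran from 86.86 to 176.8 in DU145 and from 106 to 285.8 in LNCaP. Summed fibroblast markers ran from 334.3 to 1150 in DU145 and from 305.1 to 824.8 in LNCaP. Of these, COL1A1 lay above the median in all arrays, COL3A1 in 2 DU145 arrays and LUM in none. COL1A2 lay above it in 1 LNCaP array and DCN in 2 LNCaP arrays. Of 3 tested fibroblast markers, 1 was called lower in LNCaP and 0 higher. Summed endothelial markers ran from 95.11 to 195.4 in DU145 and from 140.6 to 323.9 in LNCaP. PECAM1 lay above the median in 4 DU145 and 5 LNCaP arrays, VWF in 4 LNCaP arrays, and CDH5 and KDR in none. Of 2 tested endothelial markers, 1 was called higher in LNCaP and 0 lower.

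The promoter sequences of 4 members are shown because these genes lie close together in HOXC and HOXD yet differed in direction or call between the lines. The RefSeq promoter table (GRCh38.p14, 250 bases before to 50 after the start) held 11 of the 28 members. Each run is 300 bases, 5′ to 3′ on the plus strand of the genome, and the capitals mark CG dinucleotides. HOXD13 (chr2:176092471-176092770) was higher in LNCaP, whereas HOXD8 (chr2:176129455-176129754) and HOXD1 (chr2:176188418-176188717), from the same cluster, were higher in DU145. The HOXD13 call lay at the threshold (limma adjusted p = 0.0495), and the lines overlapped. Its difference was 0.43 among arrays numbered 1 and 2.71 among those numbered 2. The HOXD13 call was lost for 8 of 10 arrays when single arrays were left out. HOXC5 (chr12:54016638-54016937) shares its annotated start with HOXC4. HOXC5 was lower in LNCaP and HOXC4 did not pass, and the difference between the 2 genes was not tested.
HOXD13: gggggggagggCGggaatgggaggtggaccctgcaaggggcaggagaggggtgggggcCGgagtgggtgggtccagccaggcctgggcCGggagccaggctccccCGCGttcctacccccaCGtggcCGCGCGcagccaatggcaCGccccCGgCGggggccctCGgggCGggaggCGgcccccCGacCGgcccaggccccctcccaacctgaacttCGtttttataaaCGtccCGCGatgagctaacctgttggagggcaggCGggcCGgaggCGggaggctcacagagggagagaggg
HOXD8: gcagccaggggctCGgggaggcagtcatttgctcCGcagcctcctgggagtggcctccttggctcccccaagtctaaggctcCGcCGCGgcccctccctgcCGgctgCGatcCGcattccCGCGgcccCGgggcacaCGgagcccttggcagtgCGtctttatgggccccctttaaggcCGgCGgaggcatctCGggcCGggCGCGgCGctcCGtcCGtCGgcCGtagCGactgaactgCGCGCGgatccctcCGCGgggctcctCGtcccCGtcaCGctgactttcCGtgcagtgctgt
HOXD1: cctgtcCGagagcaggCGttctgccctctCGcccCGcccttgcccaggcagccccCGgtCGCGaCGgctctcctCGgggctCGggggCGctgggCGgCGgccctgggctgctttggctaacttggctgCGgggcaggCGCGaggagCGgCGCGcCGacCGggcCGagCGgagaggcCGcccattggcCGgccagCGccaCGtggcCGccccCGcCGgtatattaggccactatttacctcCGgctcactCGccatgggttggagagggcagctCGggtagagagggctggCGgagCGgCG
HOXC5 and HOXC4: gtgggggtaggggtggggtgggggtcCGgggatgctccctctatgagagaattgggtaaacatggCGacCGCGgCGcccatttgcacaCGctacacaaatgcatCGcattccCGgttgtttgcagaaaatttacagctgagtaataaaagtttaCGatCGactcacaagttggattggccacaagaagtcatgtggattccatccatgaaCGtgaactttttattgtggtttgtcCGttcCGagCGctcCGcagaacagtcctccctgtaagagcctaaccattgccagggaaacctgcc

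The HOXD13 window held 24 CG and 74% G and C, HOXD8 34 CG, HOXD1 36 CG and the shared HOXC4 and HOXC5 window 15 CG, against a median of 14 over 35116 promoters of the same length. At least as many CG as HOXD13 were held by 33.9% of promoters, as many as HOXD8 by 15.6%, and as many as HOXD1 by 12.7%. The TATA-like word TATAAA, searched on both strands, matched 2 times in the HOXD13 window and 0 times in the other 3. The 2 matches lie on opposite strands and overlap, so they mark 1 stretch. The word is held by 11.5% of all promoters. The homeodomain word TAATTA (in 4.84% of promoters) and the PBX-HOX word TGATTNAT (in 2.82%) had no match in these windows. CAATAAA, a word bound by posterior HOX proteins (in 4%), matched 1 time, in the HOXC4 and HOXC5 window.

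Of the HOX members, more lay above background in DU145 than in LNCaP. The share of all genes above the array median throughout each line was not counted. No result particular to HOX genes is therefore read from the counts in this paragraph. In DU145, 16 of the 28 members lay above the array median in all 5 arrays, and in LNCaP 8 did. With the 60th percentile of the array as the floor, these counts were 10 and 5. Above the median in all arrays of both lines were 7 members, namely HOXB3, HOXB5, HOXB9, HOXC4, HOXC6, HOXC9 and HOXC13. In no array of either line above it were 4 members: HOXB4, HOXD4, HOXD10 and HOXD12. The HOXD cluster had 3 of 8 members above background throughout DU145 and 0 of 8 throughout LNCaP. HOXC had 7 and 4 of 9, and HOXB had 6 and 4 of 10. The probe sets annotated to HOXD3 together with HOXD4 were below the median in all 10 arrays.

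**Figure D1:**
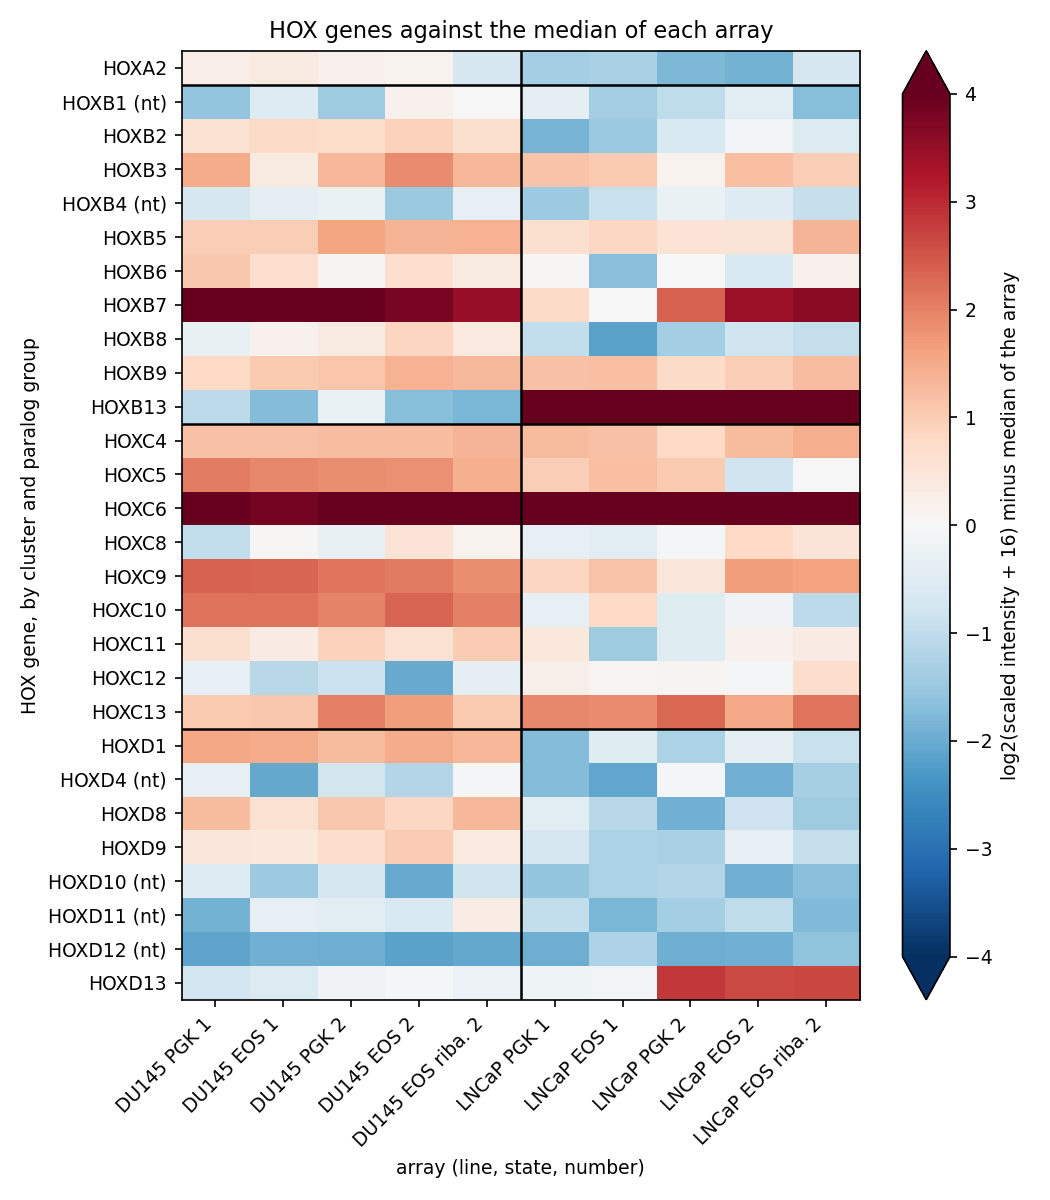
Level of each of the 28 HOX genes (rows, by cluster and paralog group; nt, not tested) in each of the 10 arrays (columns), as log2(scaled intensity + 16) minus the median of that array; colours are capped at 4 on either side, and rows cannot be ranked against each other. HOXB13 is blue in all DU145 arrays and dark red in all LNCaP arrays, HOXD1, HOXD8 and HOXD9 are red in DU145 alone, and HOXD13 is red in the 3 LNCaP arrays numbered 2.

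The comparison of the lines averaged the difference over PGK, EOS and ribavirin cells. Before it, 22 members passed the filter (above the array median in at least 2 of 10 arrays) among 14330 genes. The 6 others were HOXB1, HOXB4, HOXD4, HOXD10, HOXD11 and HOXD12. In LNCaP 4 members were higher and 10 were lower (limma, Benjamini-Hochberg adjusted p under 0.05). Of all genes tested, 48.4% passed, 23.5% as higher and 24.9% as lower. The median difference was -1.03 over the 22 members and -0.04 over all genes. Of the 22 members, 10 passed the filter through 1 line only, which favours a difference, and all 10 of these were called. The other 12 passed in both lines, and 4 of them were called. The arrays of the lines did not overlap for 14 members, and for 42.4% of all genes.

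HOXB13, the posterior gene at the 5′ end of its cluster and a luminal lineage factor, showed the largest difference. It read 5.26 and 5.92 in DU145 PGK cells, 4.55 and 4.71 in EOS cells and 4.63 after ribavirin, all below the array medians. In LNCaP it read 11.86 and 11.30 in PGK cells, 11.96 and 11.75 in EOS cells and 11.78 after ribavirin. The lines were far apart in every array. The difference was 6.79 ± 0.21 (SE, 5 arrays a line, limma adjusted p = 1.23e-07), or at least 42.0-fold with DU145 set to its floor. The other HOXB13 probe set differed by 6.64. Without scaling of the arrays, HOXB13 was the one member still called, at 5.71.

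The neighbours of HOXB13 differed in call. HOXB9, the next HOX gene toward the 3′ end, which helps pattern the trunk skeleton and mammary gland, read 6.88 to 7.45 in LNCaP and 7.10 to 7.83 in DU145. These ranges overlap, and its difference was -0.22 ± 0.22 (95% interval -0.72 to 0.28, limma adjusted p = 0.441). In RefSeq order PRAC2 and PRAC1 lie between HOXB9 and HOXB13. PRAC1, a small nuclear protein of prostate and distal gut, read 5.23 to 5.70 in DU145, below background, and 12.08 to 14.17 in LNCaP. PRAC1 was higher in LNCaP by 7.66 ± 0.41 (limma adjusted p = 1.87e-06), or at least 106-fold. On the far side of HOXB13, TTLL6 (tubulin glutamylation) was higher by 1.61 ± 0.39 (limma adjusted p = 0.00889), but it was at background in DU145 and above it in only 2 LNCaP arrays. Its LNCaP mean of 6.14 lay below the DU145 floor of 6.35, so that no fold can be given for TTLL6.

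HOXC6, a gene of the middle of its cluster that is known to be raised in prostate tumours, was the other member far higher in LNCaP, and it was well above background in both lines. In DU145 it read 10.38 and 10.46 in PGK cells, 10.12 and 10.53 in EOS cells and 10.68 after ribavirin. In LNCaP the values were 12.85 and 12.84, 12.81 and 12.77, and 13.01. No array of one line came near the other line. The difference was 2.41 ± 0.12 (SE, limma adjusted p = 1.62e-06), a 5.32-fold change, and it was 2.43, 2.47 and 2.33 within PGK, EOS and ribavirin cells. HOXC6 has 1 probe set.

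HOXC10, a posterior gene that acts in hindlimb and lumbar motor neurons, was lower in LNCaP. Its 5 DU145 values lay between 8.17 and 8.76. In LNCaP it read 5.83 and 5.62 in PGK cells, 7.04 and 6.15 in EOS cells and 5.10 after ribavirin, with 1 array above background. HOXC10 was lower by a difference of -2.66 ± 0.25 (SE, limma adjusted p = 5.29e-05). The 2 lines did not overlap.

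HOXC held genes lower and genes higher in LNCaP. HOXC5 was lower in LNCaP by a difference of -1.51 ± 0.37 (limma adjusted p = 0.00885), with 7.86 to 8.35 in DU145 and 5.50 to 7.44 in LNCaP. HOXC4, whose annotated start is shared with HOXC5, read 7.41 to 7.80 in DU145 and 6.91 to 7.60 in LNCaP, and its difference was -0.17 (95% interval -0.64 to 0.30). HOXC9 was lower by a difference of -1.05 ± 0.21 (limma adjusted p = 0.00343). HOXC12 was higher by 0.99 ± 0.32 (limma adjusted p = 0.0311), but it was at background in DU145 and its floor gives at least 1.10-fold. The HOXC12 call was lost when each of 5 arrays was left out in turn, with adjusted p up to 0.0791. HOXC8, HOXC11 and HOXC13 did not pass: HOXC11 stood at -1.03 ± 0.39 (limma adjusted p = 0.0582), HOXC8 at 0.06 and HOXC13 at 0.50. With the array number as a block, HOXC13 was called (0.63, limma adjusted p = 0.0257).

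In HOXD, HOXD1, HOXD8 and HOXD9 were measured in DU145 and at background in LNCaP. HOXD1, an anterior gene, read 7.44 to 7.91 in DU145 and 4.41 to 5.91 in LNCaP. Its difference of -2.51 ± 0.25 (limma adjusted p = 7.62e-05) is at least 2.95-fold against the floor of LNCaP. HOXD8 differed by -2.42 ± 0.36 (limma adjusted p = 0.000677), or at least 2.36-fold, and HOXD9, a limb patterning gene, by -1.63 ± 0.35 (limma adjusted p = 0.00461), or at least 1.65-fold. The second probe sets of HOXD1 and HOXD9 differed by -0.07 and -0.58, well short of the chosen ones. Both lay below the array median in every array, so they cannot show whether the lines differ. HOXD10, HOXD11 and HOXD12 were not tested: HOXD10 and HOXD12 were at background throughout, and HOXD11 lay above the median in 1 DU145 array.

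Other members of HOXA and HOXB were lower in LNCaP, where HOXB2, HOXB8 and HOXA2 were at background. HOXB2, which patterns the hindbrain, read 6.90 to 7.35 in DU145 and 4.28 to 6.19 in LNCaP, a difference of -1.75 ± 0.40 (limma adjusted p = 0.00669) or at least 1.85-fold. HOXB8 differed by -1.67 ± 0.41 (limma adjusted p = 0.00876), or at least 1.39-fold, and HOXA2 by -1.37 ± 0.32 (limma adjusted p = 0.00785), or at least 1.07-fold. The second HOXB8 probe set differed by -0.29 and that of HOXB6 by -0.26. Both of these lay below the array median in every array, so they cannot show whether the lines differ. At its chosen probe set HOXB6 differed by -1.03 ± 0.35 (limma adjusted p = 0.0380). Its lines overlapped at 6.31, and leaving out any 1 of 6 arrays ended the call, with adjusted p up to 0.0969. HOXB3 at -0.53 and HOXB5 at -0.57 did not pass.

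**Figure D2:**
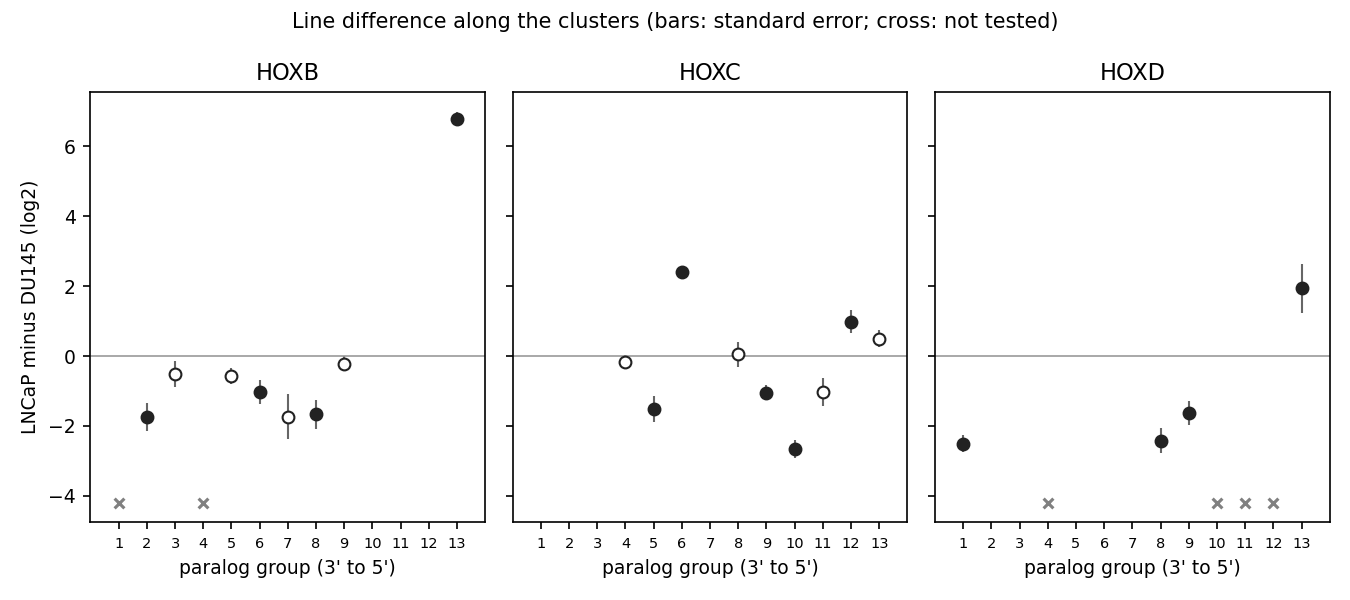
Difference between the lines (LNCaP minus DU145, log2, mean over PGK, EOS and ribavirin cells) for the tested HOXB, HOXC and HOXD genes by paralog group; bars are standard errors, filled points passed at adjusted p under 0.05, open points did not, and crosses are members that were not tested. HOXB13 stands at 6.79, HOXC6 at 2.41 and HOXD13 at 1.94, and in HOXD the groups 1, 8 and 9 lie below -1.6.

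By position, 3 of 4 tested members of paralog groups 1 to 3 were lower in LNCaP and 0 higher, in groups 4 to 8 the counts were 4 of 9 lower and 1 higher, and in groups 9 to 13 they were 3 of 9 lower and 3 higher. Over all genes tested, 24.9% were lower and 23.5% higher. HOXA2, HOXB2 and HOXD1 are the lower genes of groups 1 to 3, and HOXB13, HOXC12 and HOXD13 are the higher genes of groups 9 to 13. All of these passed the filter through 1 line only, which favours a difference. No pattern by position is read from these counts. HOXC13, at the 5′ end of HOXC, did not pass (0.50, limma adjusted p = 0.140).

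Among the PGK controls alone, which is the comparison without selection, 9 of 22 members were called, 2 higher and 7 lower, and 33% of all genes. All 9 of these were also called in the comparison above. HOXB13 stood at 5.99 ± 0.32 and HOXC6 at 2.43 ± 0.19, while HOXD1 stood at -3.01 ± 0.38 and HOXC10 at -2.59 ± 0.38. With the number as a block 11 members were called, HOXB7 and HOXD13 being added, while all genes called rose from 4731 to 6347 of 14330. The count of members fell when DU145 PGK array 1 was left out, and so did that of all genes.

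HOXB7 and HOXD13 differed among the LNCaP arrays themselves. HOXB7, a mid-cluster gene that is often raised in carcinomas, read 6.92 and 6.21 in the LNCaP PGK and EOS arrays numbered 1. It read 8.46, 9.77 and 9.75 in the PGK, EOS and ribavirin arrays numbered 2. HOXD13, the most posterior HOXD gene, needed for digits and the urogenital tract, read 5.98 and 6.13 in the arrays numbered 1 and 8.94, 8.93 and 8.83 in those numbered 2. Both genes were higher in each LNCaP array numbered 2 than in either numbered 1, in PGK and EOS cells alike. In DU145 HOXB7 read 10.45 and 10.44 in number 1 and 10.31, 10.22 and 9.92 in number 2. HOXD13 read 5.53 and 5.72 in DU145 number 1 and 6.04, 6.33 and 6.20 in number 2, all at background. The numbers did not overlap in DU145 either, but lay closer together.

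The comparison of the numbers was chosen after these values were seen, so its p-values are descriptive. In a fit with line, state and number, HOXB7 was higher in LNCaP number 2 by 2.55 ± 0.41 (limma adjusted p = 0.0122) and HOXD13 by 2.88 ± 0.34 (limma adjusted p = 0.00383). They were the 2 members called, of 6.44% of all genes. The other probe sets moved as well, by 2.92 and 1.71 for HOXB7 and by 2.44 and 2.77 for HOXD13. In DU145 the same differences were -0.18 for HOXB7 and 0.56 for HOXD13, and 0 genes were called (0% of all genes). The difference of these differences between the lines was 2.73 ± 0.57 for HOXB7 (limma adjusted p = 0.0882) and did not pass for HOXD13 either (limma adjusted p = 0.0866), while 0.942% of all genes passed. HOXB13 went the other way, by -0.38 and, at its second probe set, by -1.02.

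The numbers also differed in deposited scale and in the ACTB end ratio, in both lines, and number, scale and end ratio cannot be told apart. Other genes moved with number in LNCaP. The Polycomb genes PHF19 and EZH2 were higher in number 2 by 1.85 ± 0.20 and 0.83 ± 0.16, and PRAC1 was lower by a difference of -1.63 ± 0.21. Of the luminal markers, 1 of 6 tested was called: ACP3 (prostatic acid phosphatase) was lower in number 2 by a difference of -2.45 ± 0.41 (limma adjusted p = 0.0152), with 9.66 and 9.50 in number 1 and 7.51, 6.76 and 6.64 in number 2. The summed luminal markers were 62910 and 79410 in number 1 and 50270, 62300 and 65810 in number 2. LYZ, a myeloid gene, was higher by 3.08 ± 0.51 and lay above background in the 3 LNCaP arrays numbered 2, while PTPRC, CD14 and HLA-DRA stayed at background there. CD3E read 6.30 and 6.04 in number 1 and 5.22, 6.57 and 5.36 in number 2. The summed leukocyte markers were 107.6 and 106 in number 1 and 204.2, 285.8 and 276 in number 2. The part of these genes and markers in the HOXB7 and HOXD13 values was not tested.

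**Figure D3:**
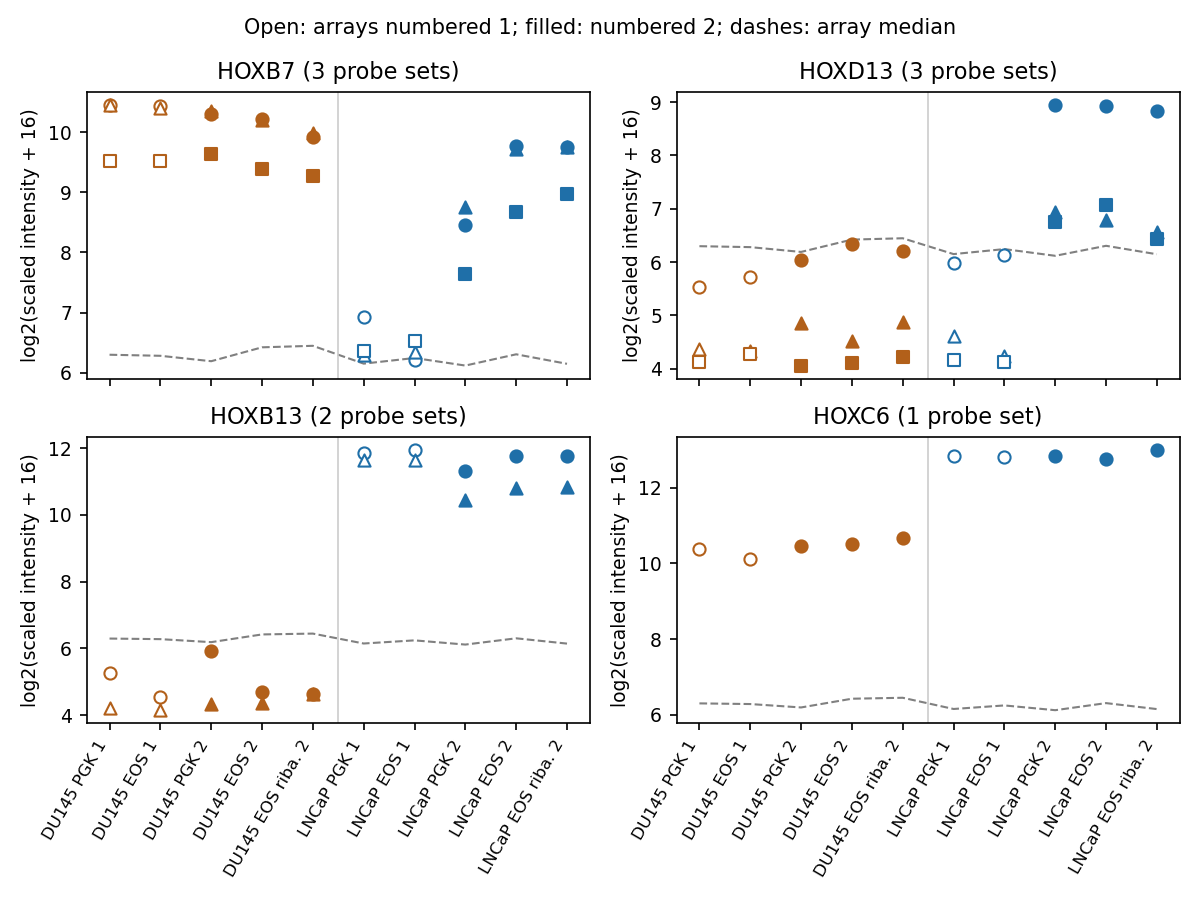
HOXB7, HOXD13, HOXB13 and HOXC6 in each of the 10 arrays, as log2(scaled intensity + 16); marker shapes are the probe sets of a gene, open markers are arrays numbered 1, filled markers arrays numbered 2, and the dashed line is the array median. In LNCaP (right of the grey line) HOXB7 and HOXD13 are higher in all arrays numbered 2, while HOXC6 stays between 12.77 and 13.01.

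The split bears on how these genes differ between the lines. HOXB7 was lower in LNCaP by a difference of -1.73 ± 0.64, which did not pass (limma adjusted p = 0.0532), although the arrays of the lines did not overlap. Its difference was -3.88 among the arrays numbered 1 and -0.82 among those numbered 2. With the number as a block HOXB7 was called (-2.19, limma adjusted p = 0.000331). HOXD13 was higher in LNCaP by 1.94 ± 0.70 (limma adjusted p = 0.0495). It differed by 0.43 within number 1 and 2.71 within number 2, and the 2 lines overlapped. Leaving out single arrays ended the HOXD13 call for 8 of 10 arrays, with adjusted p up to 0.118. With DU145 at background, the HOXD13 difference is at least 3.02-fold as a mean over the 3 LNCaP groups, in which the single ribavirin array weighs as much as each pair, and the 2 LNCaP arrays numbered 1 were themselves below the array median.

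Selection for the EOS reporter was the comparison the series was designed for. No HOX gene passed the test: 0 of 22 members and 0% of all genes passed in DU145, in LNCaP, in their mean or in their difference. At an unadjusted p under 0.05, limma gave 1 member and 227 genes in DU145, and 3 members and 597 genes in LNCaP. In the mean of the lines it gave 1 member and 293 genes, and in the difference 1 member and 464 genes. The median difference of the members was 0.08 in DU145, where all genes had -0.02, and 0.27 in LNCaP, where all genes had 0.05. For a single gene, the smallest p of an exact two-sided permutation test on these 2 and 2 arrays is 0.333.

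Among members above the array median in both PGK or both EOS arrays, the largest difference in DU145 was that of HOXC8, a thoracic patterning gene. HOXC8 read 5.31 and 5.90 in PGK cells and 6.32 and 6.97 in EOS cells, so that the arrays did not overlap, and the difference was 1.04 ± 0.54 (limma adjusted p = 1). HOXB8 (0.59), HOXB9 (0.37), HOXD8 (-0.34) and HOXC10 (0.29) followed. HOXB13 was the member with unadjusted p = 0.0151 (-0.96 ± 0.32, limma adjusted p = 1), but it was at background in all DU145 arrays and its second probe set differed by -0.03.

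By the same rule the largest difference in LNCaP was that of HOXC9, which read 7.01 and 6.56 in PGK cells and 7.40 and 7.96 in EOS cells. The difference of 0.90 ± 0.32 did not pass (limma adjusted p = 0.999). HOXC5 stood at -0.68, with 0.29 in the pair numbered 1 and -1.66 in the pair numbered 2. HOXB3 stood at 0.63, HOXC4 at 0.33 and HOXB7 at 0.30. HOXD1 (1.21 ± 0.38) and HOXC10 (0.87 ± 0.38) were the others with an unadjusted p under 0.05. HOXD1 was at background in LNCaP throughout. HOXB6 stood at -1.03, but was above the median in only 1 LNCaP PGK array and in no EOS array. The abundant HOXC6 stood at -0.10 ± 0.19 in DU145 and -0.06 ± 0.19 in LNCaP. HOXB13 in LNCaP stood at 0.27 ± 0.32 (95% interval -0.45 to 1.00).

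**Figure D4:**
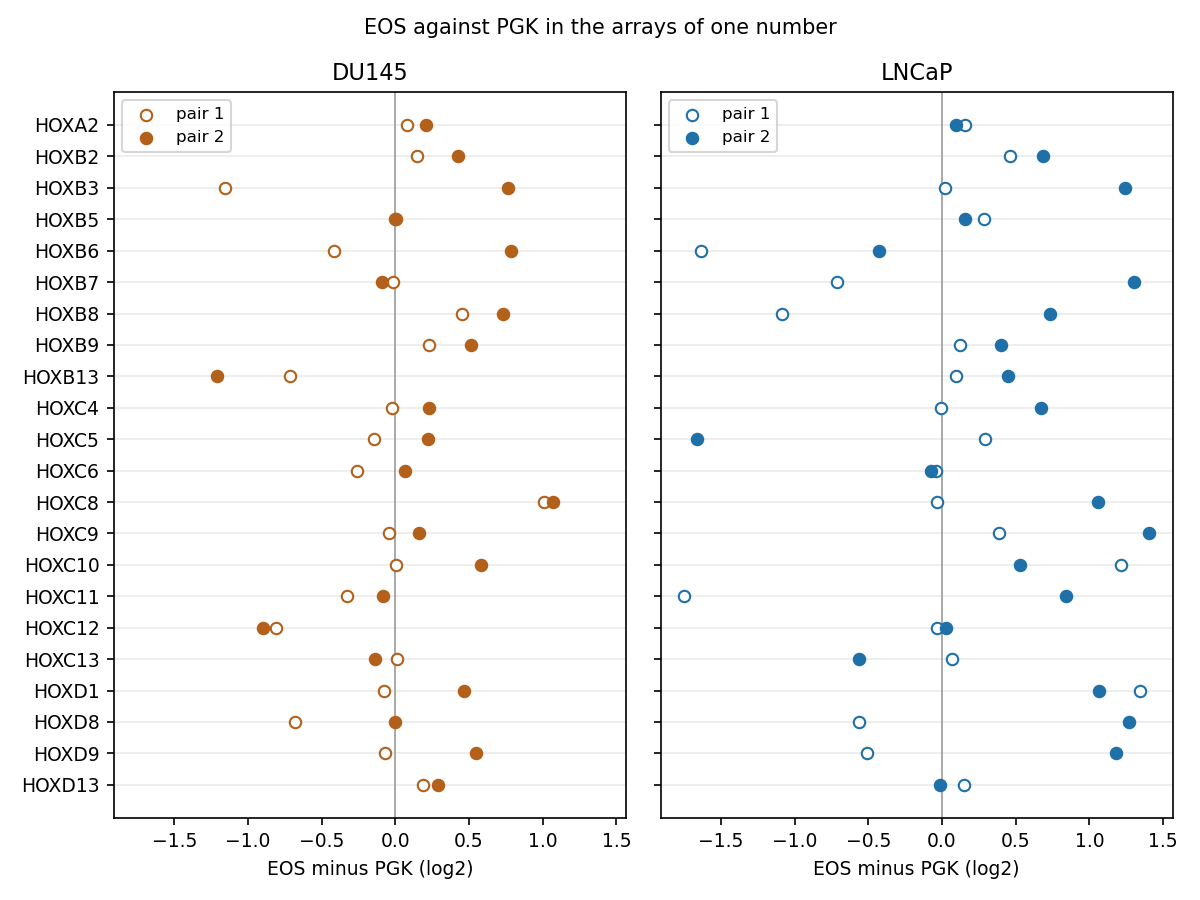
Difference of EOS minus PGK (log2) for the 22 tested HOX genes in the pair of arrays numbered 1 (open) and numbered 2 (filled), in DU145 (left) and LNCaP (right). HOXC8 in DU145 lies near 1 in both pairs, while HOXB7 and HOXC5 in LNCaP lie on opposite sides of 0 in the 2 pairs, and no member passed the test.

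Averaged over the lines, the members named by size were HOXC8 (0.78 ± 0.38), HOXD1 (0.70 ± 0.27), HOXC10 (0.58 ± 0.27), HOXC9 (0.48 ± 0.22) and HOXB2 (0.43 ± 0.43), each with limma adjusted p = 1. The difference of the EOS effect between the lines was 1.23 ± 0.45 for HOXB13, -1.21 ± 0.74 for HOXB6, 1.01 ± 0.54 for HOXD1, 0.85 ± 0.68 for HOXC12 and 0.84 ± 0.45 for HOXC9. None of these passed. HOXB13 and HOXC12 were at background in all DU145 arrays, and HOXD1 and HOXB2 in all LNCaP arrays. The averaged HOXD1 value combined 0.19 in DU145 and 1.21 in LNCaP. HOXB6 lay above the array median in only 2 LNCaP arrays and HOXC10 in 1.

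Ribavirin, a guanosine analogue, was added to EOS cells numbered 2, with 1 array a line. Against the EOS arrays, 0 members and 0% of all genes passed in DU145, in LNCaP or in their mean. At an unadjusted p under 0.05, limma gave 0 members and 250 genes in DU145, 1 member and 290 genes in LNCaP, and 1 member and 253 genes in the mean. The spread of the single array was taken from the groups with 2 arrays. Members were named by size among those above the array median in all arrays of the EOS or the ribavirin group. In DU145 these were HOXA2 (-0.82 ± 0.60), HOXD8 (0.70 ± 0.66), HOXC11 (0.65 ± 0.72), HOXB7 (-0.41 ± 1.18) and HOXC5 (-0.37 ± 0.67). HOXC12 differed by more (1.28) but was at background in all DU145 arrays.

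In LNCaP the members named by size, among those above the array median in all arrays of the EOS or the ribavirin group, began with HOXB7 (1.76 ± 1.18) and HOXD13 (1.30 ± 1.29). Against the EOS array numbered 2 alone, the same values were -0.017 and -0.10. HOXB6 (1.19 ± 0.64), HOXC11 (0.83 ± 0.72) and HOXC12 (0.57 ± 0.58) followed, and HOXC11 stood at -0.0050 against the EOS array numbered 2. HOXC10, which was not above the median in all arrays of either group, differed by more than HOXD13 and had an unadjusted p = 0.0113 (-1.49 ± 0.46, limma adjusted p = 0.999), with 5.10 after ribavirin. In the mean of the lines HOXC12 stood at 0.92 and HOXC10 at -0.82.

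Genes that work with or on HOX proteins were followed as lists. Of the TALE cofactors, homeodomain partners that help HOX proteins choose their sites, 8 were tested, and in LNCaP 1 was higher and 4 lower (all genes 23.5% and 24.9%). MEIS2, of which DU145 read 10.33 to 10.48 and LNCaP 5.18 to 6.05, was lower, at -4.89 ± 0.17 (limma adjusted p = 1.92e-07), or at least 18.2-fold with LNCaP at background. PBX3 was lower, at -2.43 ± 0.21, MEIS3 at -1.93 ± 0.26 and PBX2 at -1.43 ± 0.18. MEIS1 was the higher one, by 1.92 ± 0.25 (limma adjusted p = 0.000286), with 6.40 to 7.01 in DU145 and 8.05 to 9.07 in LNCaP. The median difference of the list was -0.51. Of the called cofactors, MEIS2 passed the filter through DU145 only, which favours a difference.

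Of 13 tested genes listed as chromatin activators of HOX genes, Trithorax group genes among them, 6 were higher and 3 lower in LNCaP. The median of this list was 0.45. The shares over all genes, 23.5% higher and 24.9% lower, are the background for this count and for those of the lists that follow. KDM6A, an X-linked histone H3 demethylase, led with 3.60 ± 0.17 (limma adjusted p = 8.87e-07), followed by DOT1L at 0.92 ± 0.22, KMT2C at 0.74, ASH2L at 0.61, KDM6B at 0.60 and DPY30 at 0.45. KMT2B (-0.82), KMT2D (-0.73) and MEN1 (-0.71) were lower. Of 18 Polycomb group genes, which silence HOX clusters, 2 were higher and 7 lower, with a median of -0.26. PHF19 stood at -3.09 ± 0.45, EZH1 at -1.30 ± 0.14, PCGF2 at -0.97, EED at -0.77, PHC1 at -0.74, MTF2 at -0.58 and RING1 at -0.50. CBX2 was higher by 1.61 ± 0.18 and RBBP4 by 0.33.

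Retinoic acid switches on anterior HOX genes, and CYP26 enzymes break it down. Of 9 tested genes of retinoid and CDX signals, 2 were higher and 3 lower in LNCaP. CYP26B1 read 10.16 to 10.69 in DU145 and 4.41 to 4.73 in LNCaP, where it was at background, a difference of -5.96 ± 0.21 (limma adjusted p = 2.41e-07) or at least 19.6-fold. CYP26A1 (-1.60) was also lower and at background in LNCaP, which gives at least 1.27-fold. The retinoic acid carrier CRABP2 (-1.36) was lower as well. The receptors RARB (2.00 ± 0.22) and RXRA (0.47 ± 0.15) were higher. CYP26A1 and CYP26B1 passed the filter through DU145 only and RARB through LNCaP only, which favours a difference.

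The noncoding transcripts of the clusters had 6 tested genes, of which 0 were higher and 4 lower in LNCaP. HAGLR, transcribed in the HOXD cluster, was lower by a difference of -2.84 ± 0.26 (limma adjusted p = 4.38e-05), with 8.20 to 9.24 in DU145 and 4.95 to 6.43 in LNCaP. HOTAIR, antisense in the HOXC cluster, was lower, at -2.24 ± 0.36 and at background in LNCaP, which gives at least 1.11-fold. In DU145 HOTAIR read 5.96 to 6.84 and lay above the array median in only 3 arrays. HOXA-AS2 (-1.88) was lower too and also at background in LNCaP, which gives at least 1.48-fold, and HOXB-AS1 stood at -0.98 (limma adjusted p = 0.0493). HOTTIP and HOXA11-AS did not pass. Of the called transcripts, HOTAIR, HOXA-AS2 and HOXB-AS1 passed the filter through DU145 only, which favours a lower value in LNCaP.

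Among the 10 tested genes that flank the clusters, 3 were higher and 2 lower in LNCaP. Beside PRAC1 and TTLL6, LNPK next to HOXD was higher by 0.78 ± 0.15. PRAC1 and TTLL6 passed the filter through LNCaP only, which favours a difference. SKAP2 and HIBADH, on either side of HOXA, were lower, at -1.29 ± 0.23 and -0.77 ± 0.12. MTX2 (-0.15), CALCOCO1 (-0.42), SMUG1 (0.35), CBX5 (0.46) and SKAP1 (1.21) did not pass. In the EOS and ribavirin comparisons 0 genes of any of these lists passed, as for 0% of all genes.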

How the data were processed

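RNA of 10 samples was measured on Affymetrix arrays with 54675 probe sets, of which 62 controls were left out. The values deposited by the authors were linear intensities, 1 for each probe set. MAS5 and affy are listed in the submitters' processing notes, and the scaling target is not given in the sources used here. Each array was scaled to a 2% trimmed mean of 500 and turned into log2(intensity + 16), so that changes of dim genes come out too small. Probe sets above the array median in at least 2 arrays were kept, and the one of highest mean per gene gave 14330 genes.

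The tests used limma 3.58.1 (R 4.3.3) on the means of 6 groups, with 4 residual degrees of freedom, an intensity trend and Benjamini-Hochberg adjustment over all genes at 0.05. Values after ± are moderated standard errors. Deviations of same-numbered arrays from their group means correlated with r = 0.123 in DU145 and 0.483 in LNCaP across genes, so a fit with the array number as a block was run beside it, and the values are given where a call changed. The script was tested on simulated data. A fold written as "at least" sets the dim line to the array median. The members, the gene lists and the rule for named genes (called members, and the 5 of largest difference above background in EOS and ribavirin comparisons) were chosen with earlier results of these data known. Lists were described by counts and medians. Alternatives were other pseudocounts, no filter, unscaled values, quantile normalization, the mean of all probe sets, the block, and each array left out.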

Additional observations from a re-analysis of the deposited data

Results flagged for a closer look

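HOXB13 moved in opposite directions in the lines under EOS selection: both pairs of arrays were lower in DU145, by differences of -0.71 and -1.21, and both were higher in LNCaP. The difference of the differences was 1.23, and its test did not pass (limma adjusted p = 1). In DU145 HOXB13 was at background in all arrays, and its second probe set stood at -0.03 there and at 0.20 in LNCaP.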

How the results depend on the processing

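The number of arrays, 2 or 1 a group, limits the precision of every value. In the comparison of the lines, the 14 called members numbered 11 to 15 when single arrays were left out, and 1 (HOXB13) on unscaled values, where 449 of all genes passed. Among PGK controls the 9 called members numbered 5 to 11 when single arrays were left out, and 0 on unscaled values, where 57 genes passed. The main fits of these 2 comparisons called 6932 and 4731 of all genes. Among PGK controls the count of all genes also fell where DU145 PGK array 1 was left out. The unscaled values keep the difference in deposited scale in the spread. The members above background in all arrays numbered 10 in DU145 and 5 in LNCaP at the 60th percentile. For the difference between the lines in the effect of number, the main fit called 0 members and 135 of all genes. With a pseudocount of 64, 1 member and 163 genes passed, and with the mean of all probe sets 1 member and 109 genes. Leaving out single arrays also changed these counts, and the cause was not tested. The replicate block added HOXB7 and HOXC13 to the line comparison and HOXB7 and HOXD13 among the PGK controls. All genes called rose with it from 6932 to 7961 and from 4731 to 6347. The EOS and ribavirin comparisons gave 0 members under every alternative run. The unscaled values were not used for ribavirin, whose controls mix the deposited scales.

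Directions that turned, none of them called, were these. When single arrays were left out, EOS in LNCaP ran from -1.65 to 0.29 for HOXC5 and from -1.48 to 2.08 for HOXB7 (-0.73 without LNCaP PGK array 1). Ribavirin in LNCaP ran from -0.017 to 3.54 for HOXB7, from -0.10 to 2.70 for HOXD13 and from -0.0050 to 1.67 for HOXC11, and in the mean of the lines from -0.21 to 1.57 for HOXB7. The turned ends for ribavirin came without LNCaP EOS array 1. Without the LNCaP arrays numbered 2, EOS in LNCaP gave 0.29 for HOXC5, -0.0049 for HOXC4 and -0.71 for HOXB7. Without those numbered 1, ribavirin in LNCaP gave -0.10 for HOXD13 and -0.0050 for HOXC11, and in the mean of the lines -0.13 for HOXB7. With the replicate block, ribavirin gave -0.14 for HOXD13 in LNCaP and -0.13 in the mean. Leaving out the LNCaP arrays of 1 number was added after the data were seen. Over the named members and these settings, 1053 values kept their direction and side of the threshold, 65 lost a call and 21 gained one.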
